A study of Mus musculus with 11 samples.

Results

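The genes that write, erase and read DNA methylation were followed in sorted mouse β-cells with and without *Raptor*. The 9 members were taken by symbol and are 9 of the 34745 entries (34728 symbols) of the deposited expression table. They are the methyltransferases *Dnmt1*, *Dnmt3a* and *Dnmt3b*, their partner *Uhrf1*, the demethylating enzymes *Tet1*, *Tet2* and *Tet3*, and the methyl-CpG binding proteins *Mbd1* and *Mbd2*. The rule used no measured value.

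The study compared β-cells of 3 groups of mice to separate the loss of *Raptor*, the defining subunit of mTORC1, from the high blood glucose that follows it. WT mice carried RIP-Cre, intact *Raptor* and the *Rosa26* GFP reporter (3 libraries). Diabetic βRapKOGFP mice carried the same Cre and reporter with *Raptor* deleted (4 libraries), and euglycemic βRapKOGFP mice had the same genotype and were treated with insulin for 4 weeks (4 libraries). All were males of 8 weeks on a C57BL/6 x 129SV background. Every group, WT included, therefore expressed Cre from the rat insulin promoter, and a cell was collected because it carried GFP, so that a cell that had once been a β-cell and changed its hormone was still counted. The sort was not fully pure. Nothing in the labels says whether a library came from 1 mouse or from several, so p-values measure the spread between these libraries.

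DNA methylation places a methyl group on cytosines that precede guanines. *Dnmt3a* and *Dnmt3b* set new methylation, *Dnmt1* copies it to the new strand after replication, and *Uhrf1* brings *Dnmt1* to hemimethylated DNA. Tet enzymes oxidise the mark so that it can be lost by repair or dilution, and methyl-CpG binding proteins recruit repressors to it. In β-cells, *Dnmt3a* is known for keeping metabolic genes such as *Hk1* and *Ldha* silent. The study cites *Dnmt1* among factors reported to keep β-cells from acquiring glucagon.

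Among the members for which a start-site sequence was at hand, *Dnmt3a* and *Uhrf1* had the largest differences from WT on the log2 scale used below. *Dnmt3a* was not called, and *Uhrf1* was too low to enter the main test. Their upstream windows are shown so that the CpG density of each can be seen. RefSeq sequence (GRCm38.p6) of the 250 bases before the start is printed 5′ to 3′ on the strand of the gene, with every CpG in capitals. *Dnmt3a* has a long form and a short form with separate starts, at chr12:3806730-3806979 and chr12:3891494-3891743 on the plus strand, and a deposited gene value adds them. The RefSeq table holds another start, whose window at chr12:3806910-3807159 overlaps that of the long form and is not printed because 91 of its bases are exonic in GENCODE, against 0 and 16 in the long-form and short-form windows. *Uhrf1* also has 2 starts. The window shown, at chr17:56304063-56304312 on the plus strand, was picked because it holds a motif described below, and it also has more CpGs than the other.
Dnmt3a long form: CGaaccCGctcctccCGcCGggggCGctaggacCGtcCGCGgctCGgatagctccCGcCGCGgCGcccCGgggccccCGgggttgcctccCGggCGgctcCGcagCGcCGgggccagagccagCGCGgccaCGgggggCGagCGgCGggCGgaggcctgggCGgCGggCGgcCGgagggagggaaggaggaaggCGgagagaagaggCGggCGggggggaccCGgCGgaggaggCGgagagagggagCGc
Dnmt3a short form: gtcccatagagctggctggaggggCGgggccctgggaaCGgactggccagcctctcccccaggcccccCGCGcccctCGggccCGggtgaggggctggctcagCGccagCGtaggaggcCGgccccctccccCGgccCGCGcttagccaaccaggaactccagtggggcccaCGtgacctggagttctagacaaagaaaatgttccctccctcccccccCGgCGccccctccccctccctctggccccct
Uhrf1: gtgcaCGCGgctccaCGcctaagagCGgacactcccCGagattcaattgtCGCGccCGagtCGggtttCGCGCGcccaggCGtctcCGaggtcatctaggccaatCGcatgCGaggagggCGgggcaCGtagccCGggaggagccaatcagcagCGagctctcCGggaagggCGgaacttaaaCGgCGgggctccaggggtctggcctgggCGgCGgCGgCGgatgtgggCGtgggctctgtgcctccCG

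The long-form window of *Dnmt3a* holds 38 CpGs in its 250 bases, more than 98.1% of the 32851 windows of the same length in the RefSeq table, whose median is 6. The overlapping window that is not printed holds 40, and the short-form window holds 15. The *Uhrf1* window shown holds 30 CpGs, more than 94.1% of all windows. The window of the other start, at chr17:56303087-56303336, holds 10 CpGs (more than 62.2% of windows) and none of the motifs searched. The window shown also holds 1 copy of TTTCGCGC, which belongs to the E2F type of motif that is known from genes of DNA replication. This window was printed on the condition that it held such a motif, so the match in it is not a finding. The letters searched on both strands were TTTCCCGC, TTTGGCGC, TTTCGCGC and TTTGCCGC, and 1.86% of all windows hold at least 1 of them. *Dnmt1* has 1 copy of TTTCGCGC in a window at chr9:20952624-20952873 on the minus strand, where 166 bases are exonic in GENCODE. The windows of its other starts have none of the 4, nor do the 3 *Dnmt3a* windows. The match is a description of the letters, since neither binding nor methylation was measured.

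RNA was measured as FPKM, fragments scaled by transcript length and by the size of the library, which allows levels to be compared between genes. Inferred depth was 9497014 to 16612256 fragments per library. *Rptor*, the deleted gene, ran from 0.948 to 1.79 FPKM in WT and from 0.423 to 0.937 in the 8 mutant libraries, without overlap (exact permutation test, two-sided, p = 0.00606). β-cell markers dominated every library, and *Ins1* ran from 47726 to 101797 FPKM. Diabetic replicate 1 stood apart, with 25711 genes above 0 against 13095 to 17329 in the other libraries. Its 7 immune markers summed to 66.5 FPKM and its 8 endothelial markers to 52.2 FPKM, the highest of the 11 libraries, and *Ptprc*, the defining leukocyte marker, was above 0 in that library alone, at 0.686 FPKM. The endothelial sum was higher in all 4 diabetic libraries, at 8.70 to 52.2 FPKM, than in WT (1.68 to 4.17) or euglycemic libraries (1.403 to 4.58), and its part in the differences of the diabetic group was not tested. The 9 acinar markers summed to 2.48 to 31.1 FPKM in WT, 10.4 to 1893 in diabetic and 5.17 to 3305 in the euglycemic libraries, with no clean split between the mutant groups. In such bulk samples, fewer cells of a type and less RNA per cell cannot be told apart.

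Levels spanned a wide range, and the readers were far above the enzymes. *Mbd2*, which recruits the NuRD repressor to methylated DNA, had a mean of 36.2 FPKM over the 11 libraries (27.8 to 46.3). *Mbd1* followed at 7.14 FPKM, below *Mbd2* in all 11 libraries. *Dnmt1* at 1.91 and *Dnmt3a* at 1.89 could not be ordered, as *Dnmt1* was the higher in 5 of 11 libraries. *Tet3* (0.950), *Tet2* (0.729) and *Dnmt3b* (0.451) came next, and each exceeded the one after it in 10, 9 and 7 libraries. *Uhrf1* was listed at 0 in 3 libraries, and *Tet1* had the lowest mean at 0.156 FPKM. Among all genes above 0, *Mbd2* lay at the 95.9th percentile of mean FPKM and *Tet1* at the 44.7th.

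**Figure D1:**
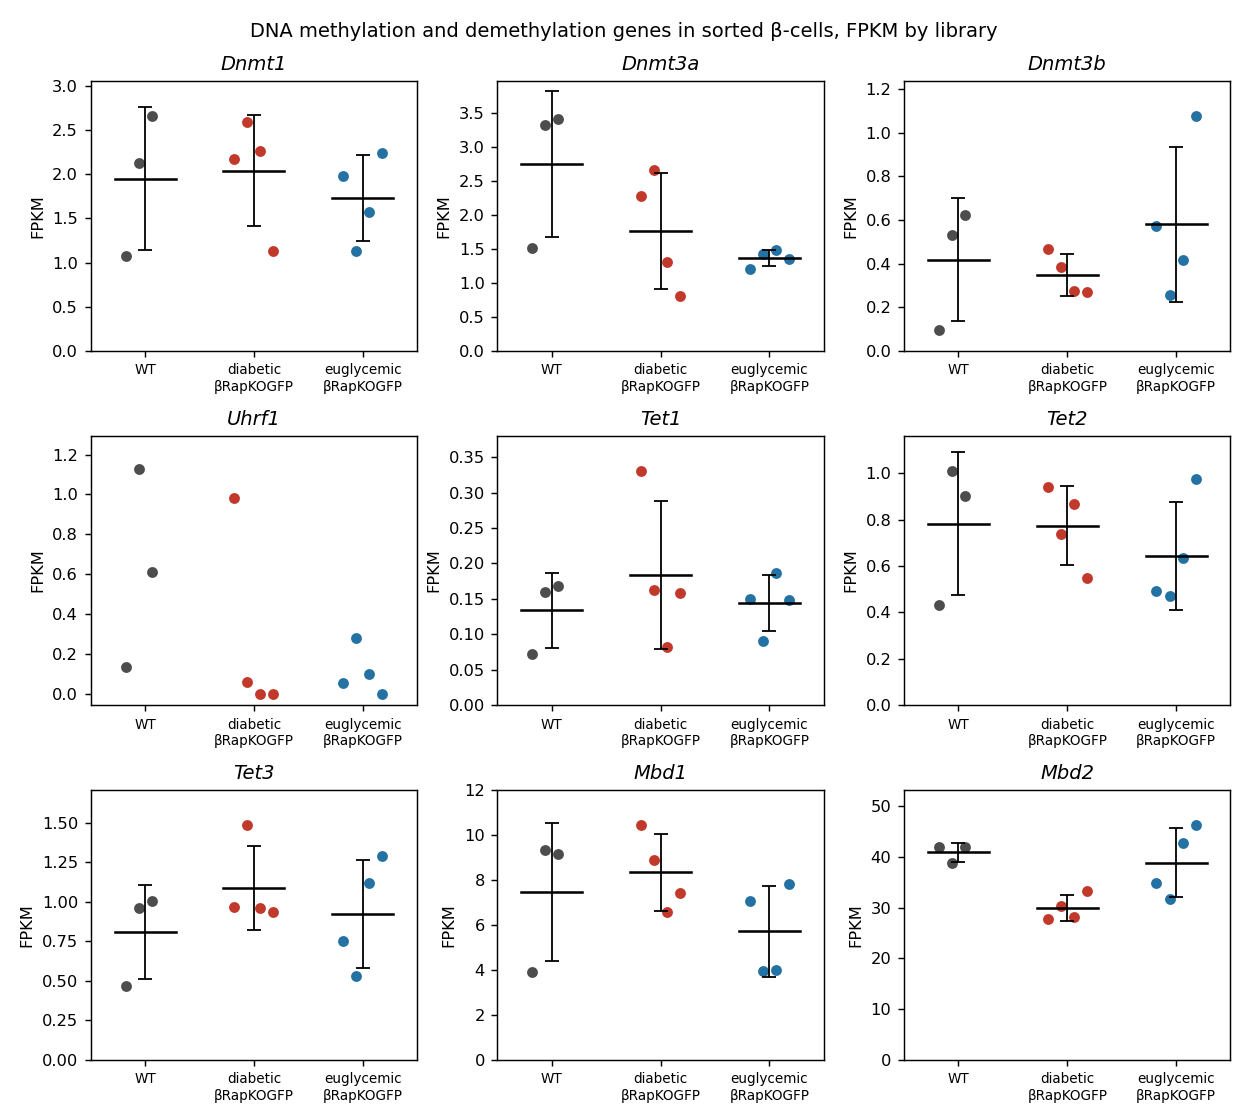
FPKM of the 9 genes in each library of sorted β-cells, on a linear axis that differs between panels. Points are libraries, the horizontal bar is the group mean and the error bar the SD (n = 3, 4 and 4), except for *Uhrf1*, where only points are drawn. The 4 diabetic libraries lie below the 3 WT libraries for *Mbd2*, and the 4 euglycemic libraries lie below them for *Dnmt3a*.

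Of the 9 members, 5 (*Dnmt1*, *Dnmt3a*, *Tet3*, *Mbd1* and *Mbd2*) reached 1 FPKM in 3 or more libraries and entered the limma fit over 11251 genes. A gene was called at a Benjamini-Hochberg adjusted p of at most 0.05 and at least 1.5-fold. No member was called between diabetic and WT, where 0.969% of the genes tested were called, between euglycemic and WT (0.551%) or between diabetic and euglycemic (0.00889%). With limma's unadjusted p of at most 0.05, the counts were 1 of 5 (*Mbd2*, lower, against 11.9% of genes, 5.74% lower), 1 of 5 (*Dnmt3a*, lower, against 13.9%, 6.52% lower) and 0 of 5 (against 20.6%). With a 1.5-fold difference required as well, they were 0, 1 (*Dnmt3a*) and 0 of 5, against 8.26%, 9.92% and 12% of genes. Weighting the libraries by estimated quality was the only one of the alternatives run that called any member at the adjusted threshold. It called *Dnmt3a* and *Mbd1*, both lower in euglycemic than in WT libraries, and called 2287 genes in all in that comparison against 62 without weights.

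**Figure D2:**
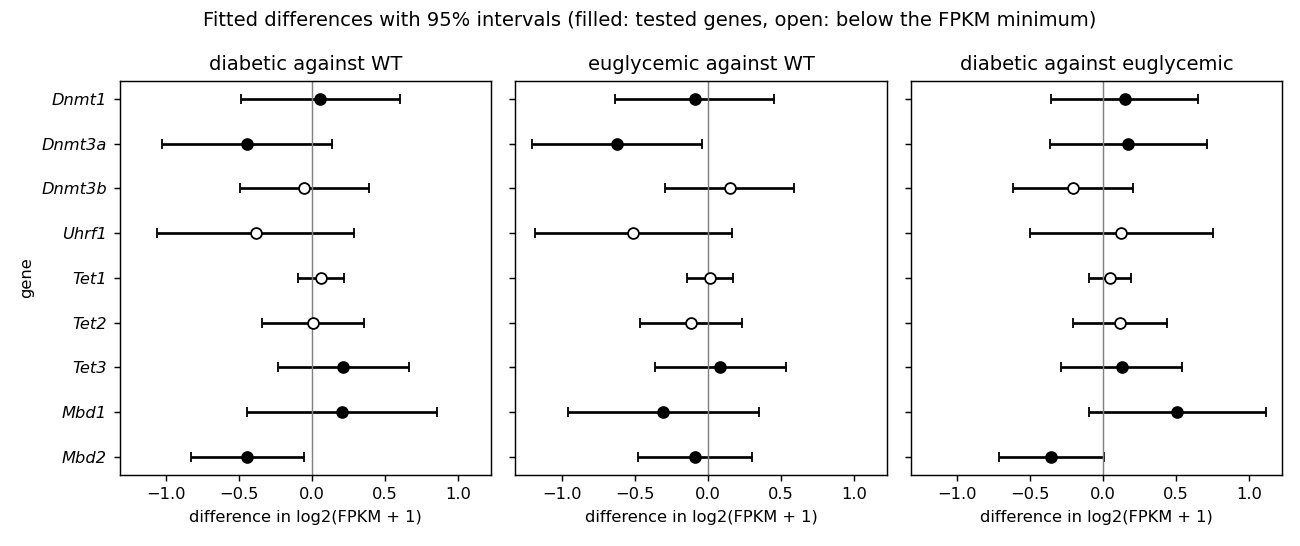
Difference in log2(FPKM + 1) for each gene in 3 comparisons, with 95% intervals from the fit of all 11 libraries (filled points, tested genes) or from the gene's own spread (open points, genes below the FPKM minimum). Among the filled points, the intervals of *Mbd2* between diabetic and WT and of *Dnmt3a* between euglycemic and WT leave out 0, and neither passed the adjusted threshold.

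*Dnmt3a* (ENSMUSG00000020661, chr12:3806007-3914443 of GRCm38, plus strand) had the largest fitted difference of the tested members. Its FPKM was 1.51, 3.32 and 3.41 in WT replicates 1, 2 and 3. It was 2.28, 2.66, 1.31 and 0.810 in the diabetic libraries and 1.21, 1.42, 1.49 and 1.35 in the euglycemic libraries. The euglycemic values sat close together and below all WT values, while WT replicate 1 lay next to them and far from its own group.

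Between euglycemic and WT, *Dnmt3a* was −0.62 on the log2(FPKM + 1) scale (SE 0.27, 95% interval −1.20 to −0.04, limma adjusted p = 0.333). The exact permutation test, two-sided, gave p = 0.0286, the smallest p that 4 libraries against 3 allow, and the groups did not overlap, as was so for 10.9% of the genes tested (5.02% lower), while 5.98% had an exact p of at most 0.05. Between diabetic and WT the difference was −0.45 (SE 0.27, limma adjusted p = 0.557), and the groups overlapped. It was −0.72 without WT replicate 1 and −0.26 without diabetic replicate 4. These comparisons share the WT libraries. With the 8 mutant libraries together, the difference was −0.53 (exact permutation test, two-sided, p = 0.0424), against 9.28% of genes with an exact p this low or under 0.05, and it was the only 1 of the 9 members to reach that. It did not pass with a pseudocount of 0.1 (exact permutation p = 0.0606), with TPM (0.0788) or with median of ratios (0.0667). No member separated these 8 libraries from WT without overlap, which 3.68% of genes did (1.78% lower). The p rose to 0.178 without WT replicate 2 and to 0.200 without WT replicate 3 in the same exact test, and was 0.0833 to 0.108 without diabetic replicate 3 or any single euglycemic library. Over all libraries left out in turn, its lowest value was 0.0167. With the long-transcript score described below as a covariate, the difference was −0.19 between euglycemic and WT and −0.70 between diabetic and WT (limma adjusted p = 0.762 and 0.158).

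*Dnmt1* (ENSMUSG00000004099, chr9:20907209-20959888, minus strand) had nearly level group means. Its FPKM was 1.07, 2.12 and 2.66 in WT, 2.17, 2.60, 2.27 and 1.14 in diabetic and 1.99, 1.13, 1.58 and 2.24 in the euglycemic libraries. All 3 groups overlapped. The fitted difference was 0.06 between diabetic and WT (95% interval −0.49 to 0.60) and −0.09 between euglycemic and WT (−0.64 to 0.46), so that the first interval holds a 1.5-fold increase and the second a 1.5-fold decrease.

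*Dnmt3b* (ENSMUSG00000027478, chr2:153649450-153687730, plus strand) was low throughout, and 9.81% of its 50-base stretches occur in other genes, chiefly its relative *Dnmt3c*, so that its value may hold shared reads. It was 0.0971, 0.533 and 0.623 FPKM in WT, 0.268 to 0.465 in diabetic and 0.255 to 1.08 in the euglycemic libraries, or about 6 to 44 fragments. The exact permutation test, two-sided, gave p = 0.743 for diabetic and p = 0.571 for euglycemic against WT. Summed over the 3 methyltransferases, the median was 5.98 FPKM in WT, 4.38 in diabetic and 3.62 in the euglycemic libraries, with all ranges overlapping.

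*Uhrf1* (ENSMUSG00000001228, chr17:56303321-56323486, plus strand) is a gene of dividing cells and was detected unevenly. It was listed at 0.137, 1.13 and 0.612 FPKM in WT, at 0.981, 0.0578, 0 and 0 in diabetic and at 0.0566, 0.279, 0.10 and 0 in the euglycemic libraries. These values correspond to about 48 fragments at most, and 7 of the 8 mutant libraries had 15 or fewer. The exception was diabetic replicate 1, the library with the most immune and endothelial RNA.

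The exact permutation test, two-sided, of *Uhrf1* gave p = 0.0788 for the 8 mutant against the 3 WT libraries (−0.45 on the log2 scale), which is understated at these levels (−1.61 with a pseudocount of 0.1, exact permutation p = 0.097). Leaving out each library in turn gave an exact permutation p from 0.0167, without diabetic replicate 1 (−0.56), to 0.444, without WT replicate 2 (−0.23). It was 0.0444 without WT replicate 1 (−0.68, exact permutation test) and 0.075 to 0.15 without any other library. The 3 libraries with the most *Uhrf1*, WT replicates 2 and 3 and diabetic replicate 1, were also the 3 highest for 5 of 16 cell cycle genes (*Mki67*, *Top2a*, *Ccna2*, *Mcm3* and *Birc5*) and not for the other 11. *Mki67* was 0.576 to 0.922 FPKM in these 3 libraries and at most 0.287 in the other 8. *Top2a* was 0.619 to 1.13 FPKM against at most 0.570. Over the whole list of 16 cell cycle genes the sums overlapped, at 34.1 to 41.1 FPKM in WT, 27.7 to 46.9 in diabetic and 26.5 to 44.2 in the euglycemic libraries. None of the 9 tested cell cycle genes was called, and the smallest adjusted p values by limma were 0.131 for *Rrm2* and 0.297 for *Mcm2*. *Rrm2*, a ribonucleotide reductase subunit, went the other way from *Uhrf1*, at 2.27 to 2.84 FPKM in WT and 2.91 to 7.21 in the mutant libraries. The part of dividing cells in the *Uhrf1* values was not tested. In addition, 15.4% of the 50-base stretches of *Uhrf1* occur in other genes or pseudogenes.

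The Tet enzymes did not separate the groups. *Tet3* (ENSMUSG00000034832, chr6:83362373-83459084, minus strand), the only tested one, was 0.465, 0.957 and 1.0 FPKM in WT, 0.964, 1.48, 0.959 and 0.932 in diabetic and 0.752, 0.533, 1.12 and 1.29 in the euglycemic libraries. Its fitted difference was 0.21 between diabetic and WT (95% interval −0.24 to 0.66, limma adjusted p = 0.756) and 0.09 between euglycemic and WT (−0.36 to 0.53, limma adjusted p = 0.876). *Tet2* (ENSMUSG00000040943, chr3:133463679-133545139, minus strand) ran from 0.432 to 1.01 FPKM in WT, 0.550 to 0.939 in diabetic and 0.472 to 0.976 in the euglycemic libraries.

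*Tet1* (ENSMUSG00000047146, chr10:62804570-62908996, minus strand) was found at 14 to 51 fragments per library, from 0.0729 to 0.331 FPKM, with its highest value in diabetic replicate 1. The exact permutation test, two-sided, gave p = 0.971 for *Tet2* and p = 0.486 for *Tet1* between diabetic and WT, and p = 0.571 and p = 0.714 between euglycemic and WT. Summed over the 3 Tet genes, the median was 2.07 FPKM in both WT and diabetic libraries and 1.66 in the euglycemic libraries, with all ranges overlapping. The pseudocount of 1 exceeds every *Tet1* value, so that its differences on the log2 scale are understated.

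*Mbd2* (ENSMUSG00000024513) was the best measured member, with 580 to 1260 fragments per library. It stood at 42.0, 38.7 and 42.1 FPKM in WT and at 27.8, 30.3, 28.1 and 33.3 FPKM in diabetic libraries. The euglycemic libraries had 34.8, 31.7, 42.9 and 46.3 FPKM. All diabetic values lay below all WT values, and the euglycemic values spanned the gap between them and went above it.

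The difference in *Mbd2* between diabetic and WT was −0.44 on the log2 scale, or 1.36-fold (SE 0.18, 95% interval −0.83 to −0.06, limma adjusted p = 0.347). The exact permutation test, two-sided, gave p = 0.0286, the smallest p for 4 against 3, 13.5% of the genes tested did not overlap in this comparison (6.88% lower), and 7.79% had an exact p of at most 0.05. It did not reach the fold criterion. Between diabetic and euglycemic it was −0.36 (SE 0.17, limma adjusted p = 0.245, exact permutation p = 0.0571), with the groups overlapping, and between euglycemic and WT it was −0.09 (95% interval −0.48 to 0.30). Of the genes tested, 14.3% did not overlap between diabetic and euglycemic. No stretch of *Mbd2* is shared with another gene, and the difference between diabetic and WT stayed between −0.50 and −0.41 when each library was left out in turn.

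The 3 genes whose pattern over the 11 libraries was most like that of *Mbd2* (Pearson's r of log2(FPKM + 1)) were *Idh2* (r = 0.943), *Ppp4r1l-ps* (r = 0.940) and *Gsdmd* (r = 0.940). *Idh2*, a mitochondrial isocitrate dehydrogenase, had means of 56.6 FPKM in WT, 25.9 in diabetic and 48.2 in the euglycemic libraries. These correlations describe 11 libraries of 3 groups and were picked as the highest of the genes tested.

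*Mbd1* (ENSMUSG00000024561), which binds methyl-CpG and recruits repressors of its own, was 3.90, 9.33 and 9.14 FPKM in WT. It was 10.4, 8.90, 6.56 and 7.42 in diabetic and 7.08, 3.96, 4.01 and 7.82 in the euglycemic libraries. WT replicate 1 was again the low WT library. The difference was 0.51 between diabetic and euglycemic (SE 0.28, 95% interval −0.10 to 1.11, limma adjusted p = 0.316) and −0.30 between euglycemic and WT (limma adjusted p = 0.677).

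WT replicate 1 had the lowest value of the WT libraries in 8 of the 9 members, all but *Mbd2*, while 40.3% of the genes tested were lowest there. This library also differed in how long and short transcripts were represented. A long-transcript score was taken as the median deviation of genes with transcripts of at least 3969 bases (long genes) minus that of genes of at most 2294 bases (short genes). It was −0.44 in WT replicate 1 and 0.28 and 0.31 in the other WT libraries. It was 0.50, 0.31, 0.17 and 0.01 in the diabetic libraries and −0.32, −0.40, −0.29 and −0.17 in the euglycemic libraries, with no overlap between these groups (exact permutation test, two-sided, p = 0.0286, the smallest p for 4 against 4).

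Across the genes tested, the median log2 difference between diabetic and euglycemic was −0.27 for short and 0.27 for long genes. *Dnmt1*, *Dnmt3a* and *Tet3* are long genes, with longest transcripts of 5870, 9685 and 10904 bases. *Mbd1* (3920 bases) is just under that length, and *Mbd2* (1953 bases) is a short gene. With the score as a covariate, an alternative chosen after seeing the data, the differences between diabetic and euglycemic turned from above to below 0 for *Dnmt1* (−0.44), *Dnmt3a* (−0.50), *Tet3* (−0.20) and *Mbd1* (−0.28). For *Mbd2* the value was −0.35 with the covariate and −0.36 without. The score and the treatment cannot be told apart where their values do not overlap, and directions of the long members between the mutant groups rest on this choice.

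**Figure D3:**
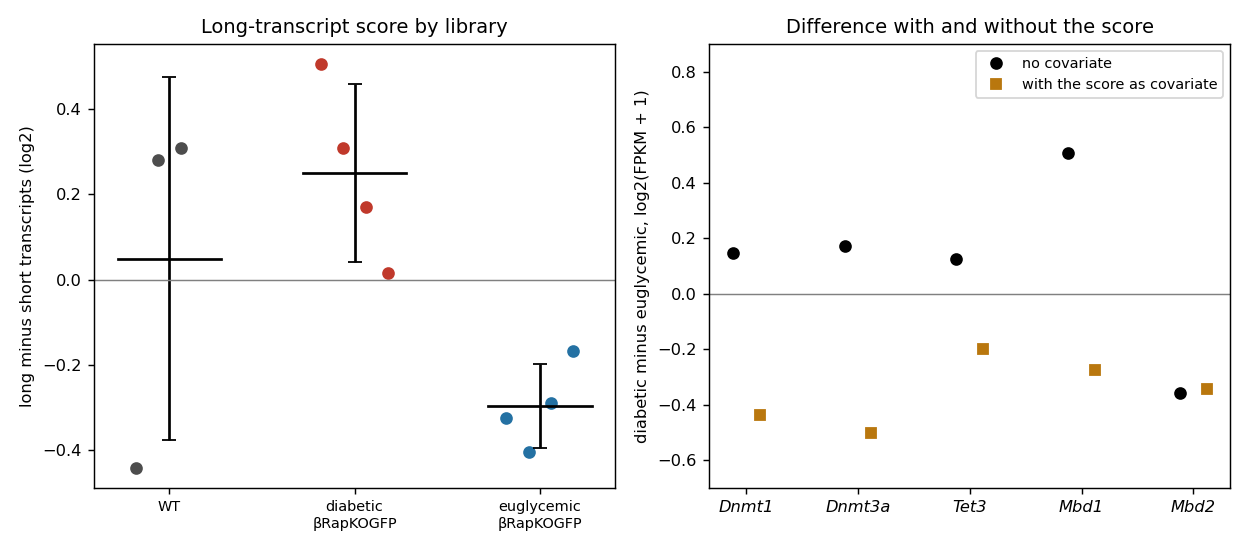
Left, the long-transcript score of each library (log2 units, points), with the group mean and SD (n = 3, 4 and 4). Right, the difference between diabetic and euglycemic libraries in log2(FPKM + 1) for the 5 tested genes, fitted without and with the score as a covariate. The 4 diabetic libraries lie above 0 and the 4 euglycemic libraries below it, and the sign of 4 of the 5 genes turns while *Mbd2* stays at −0.36 and −0.35.

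Other genes of the pathway were taken from lists of known function. Among 15 genes of active demethylation and base excision repair, 14 were tested, and 1 was called lower between diabetic and WT, with none called in the other comparisons. It was *Gadd45g*, a stress-induced gene that has been tied to demethylation by repair. Its FPKM was 332, 319 and 404 in WT, 76.3, 81.1, 97.3 and 121 in diabetic and 235, 162, 134 and 185 in the euglycemic libraries. The 3 groups did not overlap, with euglycemic values in between.

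*Gadd45g* fell by 1.91 on the log2 scale in diabetic libraries (SE 0.23, limma adjusted p = 0.00254), and the call held when each library was left out in turn. Between euglycemic and WT the difference was −0.99 (SE 0.23, limma adjusted p = 0.0965), and it was called without WT replicate 1 (limma adjusted p = 0.0453) and with library weights (0.00388). Between diabetic and euglycemic it was −0.92 (SE 0.21, limma adjusted p = 0.122), and again called without WT replicate 1 (0.0425) and with library weights (0.0188), while the long-transcript covariate left the difference at −0.80 with an adjusted p of 0.718. Its relatives *Gadd45a* and *Gadd45b* overlapped between all groups, with fitted differences of −0.10 and −0.86 between diabetic and WT. Immediate early genes, which respond quickly to handling of cells, were not called in any comparison (0 of 8). Their median log2 difference from WT was below 0, as for *Gadd45g*, at −0.58 in diabetic and −0.56 in the euglycemic libraries. Their sum ran from 1179 to 3236 FPKM in WT, 976 to 1664 in diabetic and 927 to 4793 in the euglycemic libraries. The smallest limma adjusted p values among them were 0.42 for *Junb* and 0.303 for *Nr4a1*. Their part in the *Gadd45g* difference was not tested.

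In the methyl donor cycle, which makes S-adenosylmethionine, 12 of 16 genes were tested and none was called. With limma's unadjusted p of at most 0.05, 4 of 12 were lower and 1 was higher in diabetic than in WT libraries, against 11.9% of all genes in either direction, and 4 of 12 were lower between euglycemic and WT, against 13.9%. *Mat1a*, a synthase of S-adenosylmethionine, was 26.1, 26.2 and 28.1 FPKM in WT, 13.9 to 18.3 in diabetic and 13.2 to 22.0 in the euglycemic libraries. Neither mutant group reached the WT values, and the log2 differences were −0.70 and −0.64 (limma adjusted p = 0.159 and 0.202). *Gnmt*, which uses up S-adenosylmethionine, was 7.82 to 13.3 FPKM in WT, 2.20 to 8.24 in diabetic and 6.09 to 10.4 in the euglycemic libraries, with a log2 difference of −1.10 between diabetic and WT (limma adjusted p = 0.154).

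No gene was called among 11 partners of the methyltransferases (6 tested), 11 NuRD subunits (10 tested) or 9 other methyl-CpG binders (5 tested). With limma's unadjusted p of at most 0.05, no gene of these lists differed from WT in either mutant group. Between diabetic and euglycemic, 2 of 6 partners and 1 of 10 NuRD subunits were higher and 1 of 5 binders was lower, against 20.6% of all genes in either direction. *Trim28*, a corepressor that brings methyltransferases to silenced repeats, was 8.42 to 10.02 FPKM in diabetic and 5.22 to 6.29 in the euglycemic libraries, a log2 difference of 0.54 (limma adjusted p = 0.152). WT replicate 1 had 5.18 and the other WT libraries 8.63 and 8.66 FPKM. *Setdb1*, the histone methyltransferase that works with it, was 2.61 to 3.22 FPKM in diabetic and 1.43 to 2.89 in the euglycemic libraries (0.46, limma adjusted p = 0.223).

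*Gatad2a*, a NuRD subunit, was 19.14 to 24.1 FPKM in diabetic and 12.7 to 16.4 in the euglycemic libraries, a log2 difference of 0.57 (limma adjusted p = 0.165), and *Chd3*, a NuRD remodeller, had a smallest adjusted p of 0.441. *Mbd3*, the NuRD member that binds methyl-CpG weakly, went the other way, at 7.75 to 9.71 FPKM in diabetic and 10.3 to 13.2 in the euglycemic libraries (−0.39, limma adjusted p = 0.200). *Uhrf2*, the relative of *Uhrf1*, was 4.46 to 5.86 FPKM in diabetic and 2.81 to 4.34 in WT libraries, without overlap (0.39, limma adjusted p = 0.467). The long-transcript score moves with the differences between diabetic and euglycemic, and its part in them was not tested for these genes.

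**Figure D4:**
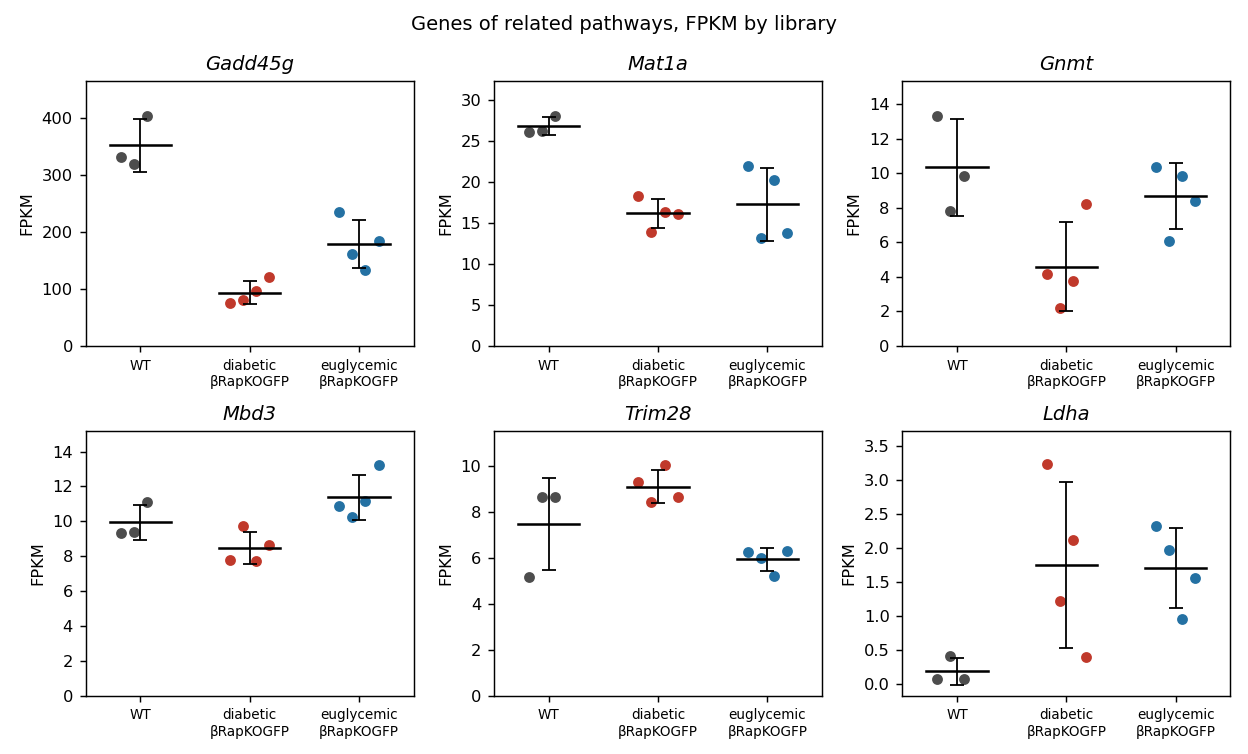
FPKM of 6 genes of related pathways in each library (points), with the group mean and SD (n = 3, 4 and 4). *Gadd45g* is the one called gene, with diabetic values of 76.3 to 121 FPKM below euglycemic values of 134 to 235 and WT values of 319 to 404.

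Genes known to be held silent by DNA methylation were read as a downstream group. Of 17 germline genes, none reached the minimum for the test, 2 were listed at 0 in every library and 14 stayed below 1 FPKM everywhere. Between 2 and 6 of the 17 were above 0 in 10 libraries and 13 in diabetic replicate 1, where *Dazl* reached 2.08 FPKM and *Slc25a31* 1.48. *Brdt* was above 0 in all 11 libraries and exceeded 1 FPKM in WT replicate 1 (1.36) and euglycemic replicate 3 (1.43). Diabetic replicate 1 had more genes above 0 in all, as given above.

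Among β-cell genes with described repression by these methyltransferases, *Ldha*, lactate dehydrogenase, entered the fit. It was 0.0793, 0.422 and 0.0804 FPKM in WT, 3.24, 1.23, 2.13 and 0.403 in diabetic and 2.33, 1.98, 0.957 and 1.56 in the euglycemic libraries. The log2 difference from WT was 1.10 in diabetic (limma adjusted p = 0.164) and 1.17 in the euglycemic libraries (limma adjusted p = 0.152), without overlap in the latter only. *Hk1*, a hexokinase, was 0 to 0.0340 FPKM in WT, 0.105 to 0.750 in diabetic and 0 to 0.424 in the euglycemic libraries.

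*Ldha* and *Hk1* are also expressed outside β-cells, and markers of several cell types moved with the groups. The 5 α-cell markers summed to 1047 to 2438 FPKM in WT, 3935 to 14718 in diabetic and 4759 to 23767 in the euglycemic libraries. *Gcg*, the glucagon gene, ran from 734 to 2116 FPKM in WT and from 3432 to 22921 in the mutant libraries. Of the 4 α-cell markers tested, *Gcg* was called higher in euglycemic than in WT libraries. The 5 δ- and PP-cell markers summed to 2113 to 3622 FPKM in WT, 9113 to 25242 in diabetic and 10438 to 26286 in the euglycemic libraries, and 2 and 4 of the 5 were called higher than in WT. The duct marker *Krt19* was called higher in euglycemic libraries, and the β-cell markers *Slc2a2* and *Slc30a8* were called lower in both mutant groups. The endothelial marker *Plvap* was called higher in diabetic than in WT libraries. *Cd79a*, a B-cell marker, was called lower in both mutant groups, at 8.20 to 20.1 FPKM in WT and 0 to 1.10 in the mutant libraries. No other tested immune marker was called. In WT the other immune markers were at most 1.23 FPKM, and *Ptprc* and *Cd52* were 0 in all 3 libraries. Of the 9 acinar markers, 1 was called higher in diabetic than in WT libraries, against 0.969% of all genes tested. With limma's unadjusted p of at most 0.05, 7 were higher, against 11.9%. The part of other cell types, or of β-cells that make other hormones, in these values was not tested.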

How the data were processed

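RNA of GFP-sorted mouse β-cells was measured in 11 libraries (3 WT, 4 diabetic and 4 euglycemic βRapKOGFP). The deposited values are FPKM per gene, computed by the authors from reads aligned to mm10. The study's methods name Tophat and Cufflinks, while the submitters' processing notes name HISAT2 2.0.4, StringTie 1.3.0 and edgeR, so the aligner is uncertain. Columns named KI were read as insulin-treated knockout, the one group left without columns. A depth of 9497014 to 16612256 fragments was inferred from steps in single-exon genes (92.7 to 97.7% of low values within 0.02 of a whole number), and fragment numbers are approximate.

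The 11251 genes that reached 1 FPKM in 3 or more libraries were tested as log2(FPKM + 1) with limma 3.58.1 in R 4.3.3, all 3 groups in 1 fit, with Benjamini-Hochberg adjustment. Calls required adjusted p ≤ 0.05 together with a 1.5-fold difference on that scale, which understates low genes. Single genes were compared by exact permutation, two-sided (scipy 1.17.1). The fit was tested on simulated data. Members were described whether tested or not, and from each other pathway list the genes named were those called in any comparison (up to 4) or, with none called, the 2 with the smallest p, beside the 3 genes most like the member with the highest mean. *Gadd45a*, *Gadd45b*, *Hk1*, *Mki67*, *Top2a*, *Ccna2*, *Mcm3*, *Birc5*, *Dazl*, *Slc25a31*, *Brdt* and the cell type markers were added after their values were seen. The members and lists were chosen with earlier results of these data known. Alternatives were other minimums, a pseudocount of 0.1, TPM, median of ratios, library weights, a replicate block, each library left out, and, added after seeing the data, long-transcript score and acinar level as covariates. Shared sequence was counted in 50-base stretches of GENCODE transcripts (GRCm38). A gene of the repression list is not reported here.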

Additional observations from a re-analysis of the deposited data

Results flagged for a closer look

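Among 46 groups of 4 libraries (23 genes), 3 held a library far from the rest, where chance flags about 1 in 20 groups. *Uhrf1* was 0.981 FPKM in diabetic replicate 1 and 0 to 0.0578 in the other diabetic libraries. *Tet3* was 1.48 FPKM in diabetic replicate 2 and 0.932 to 0.964 in the others. *Setdb1* was 2.89 FPKM in euglycemic replicate 4 and 1.43 to 1.57 in the others.

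For a pair of genes, every diabetic library lay on one side of the WT mean and every euglycemic library on the other. The difference between diabetic and euglycemic was 0.54 on the log2 scale for *Trim28* and −0.39 for *Mbd3*. Of all genes tested, 14.3% did not overlap between these groups. *Trim28* in WT replicate 1 was 5.18 FPKM, below every euglycemic library. Whether the effects against WT differ was not tested.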

How the results depend on the processing

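Of the values recomputed under the alternatives, 761 were labelled as unchanged and 35 as changed in sign. Another 10 fell below and 9 passed the threshold, and 21 moved in size beyond the spread or, for counts, by over 1.5 times. For untested members, sign changes between diabetic and WT, euglycemic and WT, or diabetic and euglycemic were not counted among the 35. Some of the 761 therefore did not keep direction, and those seen on leaving out a library are listed below. No member was called under any alternative except library weights, which called 2 between euglycemic and WT, and an unadjusted p of at most 0.05 with 1.5-fold, which gave 1. The cause was not tested. Of the tested members, library weights turned *Dnmt1* (−0.083) and *Mbd1* (−0.13) between diabetic and WT and *Tet3* (−0.15) between euglycemic and WT. The covariate lists that follow also name tested members only. The acinar covariate turned *Dnmt1* (−0.30) and *Mbd1* (−0.18) between diabetic and WT. The long-transcript covariate turned *Dnmt1* (−0.16) and *Mbd1* (−0.084) between diabetic and WT, *Dnmt1* (0.28) and *Mbd1* (0.19) between euglycemic and WT, and *Dnmt1* (−0.44), *Dnmt3a* (−0.50), *Tet3* (−0.20) and *Mbd1* (−0.28) between diabetic and euglycemic. The count of members with an exact permutation p of at most 0.05, both mutant groups against WT, was 1, and 0 with a pseudocount of 0.1, TPM or median of ratios, and 0 to 2 when each library was left out. Leaving out each library gave −0.18 to 0.23 for *Dnmt1* and −0.15 to 0.39 for *Mbd1* between diabetic and WT, and −0.33 to 0.085 for *Dnmt1*, −0.059 to 0.19 for *Tet3* and −0.17 to 0.0045 for *Mbd2* between euglycemic and WT. Untested members also crossed 0. These were *Dnmt3b* (−0.23 to 0.053) and *Tet2* (−0.15 to 0.099) between diabetic and WT. Between euglycemic and WT they were *Dnmt3b* (−0.024 to 0.26) and *Tet1* (−0.026 to 0.036), and between diabetic and euglycemic *Uhrf1* (−0.12 to 0.21) and *Tet1* (−0.012 to 0.087). For both mutant groups it gave −0.25 to 0.16 for *Dnmt1*, −0.13 to 0.16 for *Dnmt3b*, −0.0031 to 0.058 for *Tet1*, −0.20 to 0.041 for *Tet2* and −0.40 to 0.13 for *Mbd1*. Same-numbered libraries did not deviate together (mean r −0.132 over 10 pairs), and with the replicate block 0 members and 45, 20 and 0 genes were called, against 109, 62 and 1. Over all genes, the counts called in the same order were 22, 13 and 0 without a minimum, 551, 2287 and 1212 with library weights, 83, 26 and 0 with the long-transcript covariate, 43, 34 and 0 with the acinar covariate, and 149, 17 and 6 with only the groups compared in the fit. Leaving out each library gave 26 to 210, 12 to 536 and 0 to 378, with the highest counts in the last pair of comparisons without WT replicate 1. TPM moved the median of all genes between diabetic and euglycemic from 0.01 to 0.12. Depth limits *Uhrf1*, *Tet1* and *Dnmt3b*, at 51 fragments or fewer.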
